A study of Mus musculus with 35 samples.

Results

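The galectin genes Lgals1, Lgals3, Lgals8 and Lgals9 were followed in LT-HSCs sorted from mice. LT-HSCs are the long-term stem cells of the blood, which renew themselves and give rise to all blood lineages. They are 4 of the 19138 genes counted, taken by name, and 6 other galectin or galectin-related genes were counted beside them. Lgals1 was chosen by its measured values, because its log2 change with JAK2-V617F had opposite signs in cells with Ezh2 and in cells without it. For that reason its values in the groups behind those changes are given as a description, with no test.

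RNA was measured in 35 libraries of 1000 sorted cells each from transgenic mice, all of which carried SclCre, a Cre recombinase under the control of Scl (Tal1), a gene active in blood stem cells. The 6 groups were 6 libraries with JAK2V617F and Ezh2 -/- (JAK2-VF Ezh2-null, the double mutant), 8 with JAK2V617F and Ezh2 +/- (JAK2-VF Ezh2-het), 6 with JAK2V617F and Ezh2 +/+ (JAK2-VF), 4 with Ezh2 -/- alone (Ezh2-null), 7 with Ezh2 +/- alone (Ezh2-het) and 4 with SclCre alone (control). JAK2V617F is the activating kinase mutation of myeloproliferative neoplasms, and Ezh2 is the histone methyltransferase of PRC2, a complex that silences genes. The sources used here give neither the age of the mice nor the gate of the sort.

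Galectins are small lectins that bind galactose-containing sugar chains on glycoproteins and glycolipids. Lgals1 forms pairs of a single sugar-binding domain, Lgals3 joins such a domain to a long repetitive tail that lets it form larger assemblies, and Lgals8 and Lgals9 each carry a pair of different domains on 1 chain. Outside the cell galectins cross-link receptors on blood and immune cells, and inside it Lgals3, Lgals8 and Lgals9 bind sugars exposed on damaged lysosomes and vesicles.

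Library totals ran from 13.6 to 48.6 M counts (median 24.9 M), with 14 libraries in batch 1 and 21 in batch 2, and 20 from females and 15 from males. All 4 controls were female, 4 of the 6 JAK2-VF libraries were male, 3 of the 4 Ezh2-null libraries were male and 5 of the 6 JAK2-VF Ezh2-null libraries were female, so sex moved with genotype. Levels are CPM, counts per 1 M counts of the library, and a gene was called, said to rise or fall, at an edgeR p under 0.05 after adjustment over all 14945 genes tested. A part of Ezh2 counted as an entry of its own had 0 counts beside 5046 of the whole gene in JAK2-VF Ezh2-null libraries and 0 to 0.478% of the gene's count in Ezh2-null libraries, against 6.34 to 9.27% in JAK2-VF and 6.02 to 8.72% in control libraries. Libraries labelled heterozygous lay at 4.08 to 8.5% with JAK2-VF and 0 to 9.5% without, and 5 of 8 with JAK2-VF and 2 of 7 without had a share at least as high as the lowest JAK2-VF and control library, so this part does not set all of them apart from Ezh2-intact cells. The library labelled Ezh2-het batch 1 replicate 3 had 0 counts in that part beside 831 of the gene, and Xist was at 391 CPM in the library labelled Ezh2-het batch 1 replicate 1, a male by its label, where other males had 0.448 to 14.4 and females 590 to 1350 CPM. The 12 stem-cell marker genes were all present in every group, with summed levels of 3450 to 5280 CPM in the 3 groups with JAK2-VF and 5160 to 7350 CPM in the 3 groups without.

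The 4 genes stood at very different levels, and Lgals9 was the most abundant galectin RNA. Levels between genes are compared as CPM per kb, CPM divided by gene length, as medians over the 35 libraries. Lgals9 (Entrez 16859, 1586 bases) had 271, Lgals8 (Entrez 56048, 2980 bases) 43.7, Lgals1 (Entrez 16852, 800 bases) 36.8 and Lgals3 (Entrez 16854, 1406 bases) 3.97 CPM per kb. Lgals8 and Lgals1 lay within each other's range, at 25.8 to 63.5 and 16.3 to 74.3 CPM per kb, so their order is not clear from these libraries. Lgals3 ran from 0.392 to 41.5 CPM and had a coefficient of variation of 100%, against 35.8% for Lgals1, 24.1% for Lgals9 and 17.9% for Lgals8.

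Among the other galectin genes only Lgals4 reached the level of Lgals1 and Lgals8, with a median of 42 CPM per kb. Some mouse strains carry a near-identical copy of it, Lgals6, so its counts are uncertain. The galectin-related gene Lgalsl had a median of 7.44 CPM per kb. Lgals7, Lgals12 and Grifin, which are known from skin, fat and lens, had medians of 0.378, 0.0684 and 0 CPM per kb and no count in 10, 11 and 24 libraries. Lgals2 had 53 counts in all and none in 30 of the 35 libraries, and a library's count of 0 allows a level of up to 0.0627 to 0.214 CPM (3 counts, counting error only). In bulk samples, fewer cells that express a gene and less RNA per cell cannot be told apart.

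**Figure D1:**
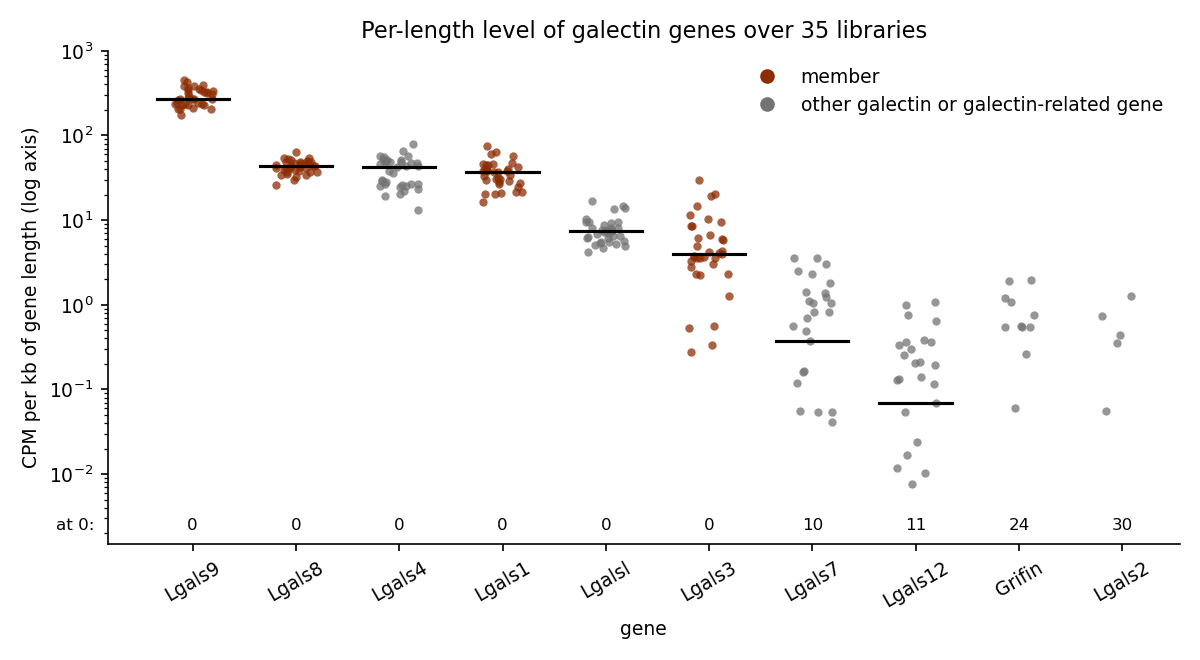
Level of each galectin gene as CPM per kb of gene length on a log axis, 1 point per library (35 libraries), with the 4 members in brown and the median as a bar. The number of libraries with no count stands under each gene, and Lgals9, at a median of 271 CPM per kb, lies above every other galectin gene.

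Lgals1, which encodes galectin-1, a regulator of T cell survival and cell adhesion, had its highest level in stem cells that carried JAK2-VF and had lost both Ezh2 alleles. In JAK2-VF Ezh2-null libraries it ran from 31.8 to 59.5 CPM with a median of 46.4 CPM. Ezh2-null libraries had 30, 16.4, 30.5 and 24.1 CPM. A pseudogene, Lgals1-ps1, shares sequence with the gene, and reads of the pair may not have been told apart. The groups did not overlap: the lowest of the 6 JAK2-VF Ezh2-null libraries lay above the highest Ezh2-null library.

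With Ezh2 intact the order was turned. JAK2-VF libraries ran from 13.1 to 26.6 CPM with a median of 19.6 CPM, and control libraries had 36.5, 29.5, 22.3 and 31 CPM. Of the 6 JAK2-VF libraries 4 lay below every control and 0 lay above every control, so these groups overlapped.

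As fitted with terms for batch and sex, the log2 change of Lgals1 with JAK2-VF was 1.10 ± 0.23 in Ezh2-null cells (SE, n = 6 and 4) and -0.84 ± 0.22 in Ezh2-intact cells (n = 6 and 4). These are the values that chose the gene. The change with loss of both Ezh2 alleles was 1.39 ± 0.20 among JAK2-VF cells, a fold of 2.62, and -0.55 ± 0.25 among cells without JAK2-VF. With no term for sex, which moved with genotype, the last value was -0.20 and the JAK2-VF change in Ezh2-intact cells -0.54. The difference of the JAK2-VF changes, Ezh2-null minus Ezh2-intact, was 1.94 ± 0.34. JAK2-VF Ezh2-null libraries averaged 45.3 ± 9.85 CPM against 29.8 ± 5.88 CPM in control libraries (SD, n = 6 and 4), with 5 of 6 above every control and a log2 change of 0.55 ± 0.21.

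Within batches and within females these changes kept their signs. The subsets are parts of the libraries whose signs chose the gene, so they describe the values and add no independent support. The JAK2-VF change in Ezh2-null cells was 0.87 in batch 1, where 1 Ezh2-null library was present, 1.32 in batch 2 and 1.36 in females alone. In Ezh2-intact cells it was -0.80, -0.81 and -0.71 for the same subsets. In batch 2 every JAK2-VF library was male and every control was female, so there the fit took the difference between the sexes from other groups.

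Ezh2-heterozygous cells, taken as labelled, played no part in the choice of Lgals1 and allowed a test of it. JAK2-VF Ezh2-het libraries ran from 17 to 35.6 CPM with a median of 28.5 CPM, and Ezh2-het libraries from 16.6 to 37.5 CPM with a median of 25.4 CPM. The ranges lay almost on top of each other. The log2 change was 0.09 ± 0.17 (n = 8 and 7), with a 95% interval from -0.26 to 0.43, and did not pass (edgeR adjusted p = 0.823). DESeq2 and limma-voom did not call it (adjusted p = 0.851 and 0.947), and without the 2 Ezh2-het libraries whose values went against a label it was again 0.09. JAK2-VF Ezh2-het cells, at 27.1 ± 6.07 CPM, stood between JAK2-VF Ezh2-null cells at 45.3 ± 9.85 CPM and JAK2-VF cells at 20 ± 5.24 CPM. Of their 8 libraries 5 lay above every JAK2-VF library. Both outer groups took part in the choice of Lgals1, which favours a place between them for any other group. This order is therefore a description with no test. Control, Ezh2-het, JAK2-VF Ezh2-het and Ezh2-null cells had means from 25.3 to 29.8 CPM. With no adjustment for batch and sex these means differed by less than the groups' SDs of 5.88 to 8.31 CPM. As fitted with those terms, the log2 change against control cells was -0.55 ± 0.25 in Ezh2-null and -0.39 ± 0.21 in Ezh2-het cells, also with no test.

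**Figure D2:**
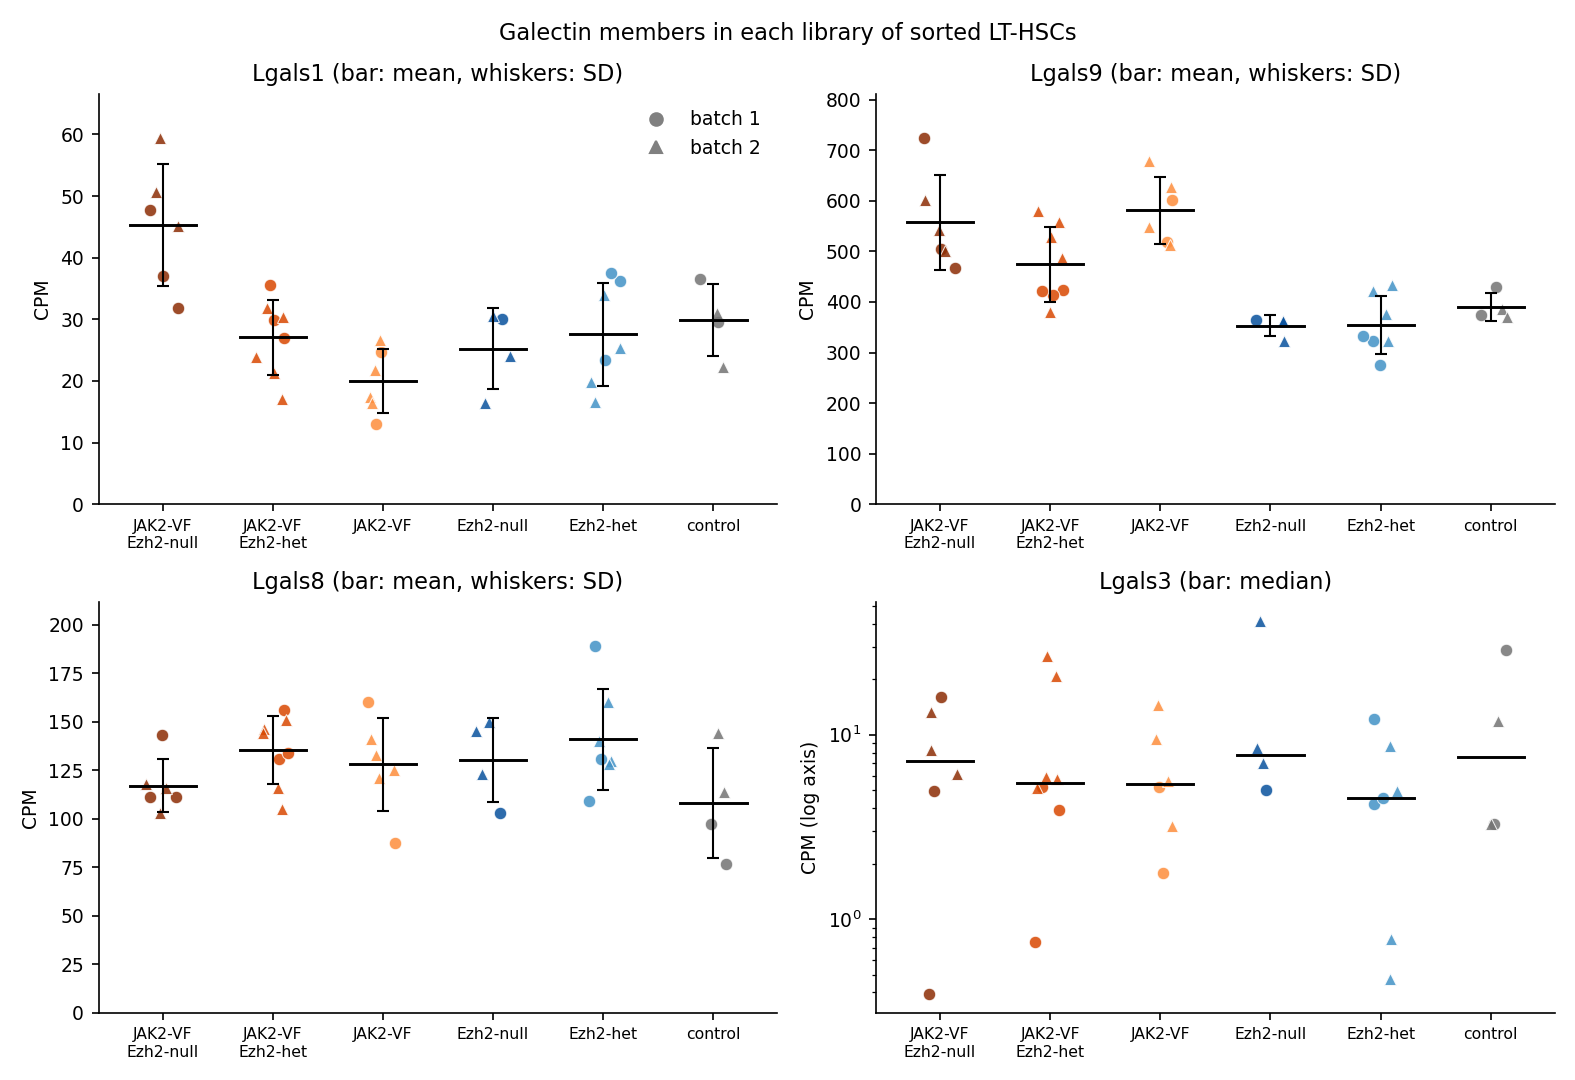
CPM of the 4 members in each library by group, with circles for batch 1 and triangles for batch 2; bars are group means with SD whiskers, or medians for Lgals3, whose axis is logarithmic. Lgals1 is highest in JAK2-VF Ezh2-null libraries (31.8 to 59.5 CPM), Lgals9 is higher in all 3 groups with JAK2-VF, and Lgals8 and Lgals3 overlap across groups.

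The 5 genes whose levels across libraries were most like Lgals1 were picked with the differences between groups left in. Lgals1 itself was highest in JAK2-VF Ezh2-null libraries, so genes picked this way tend to peak there too, and all 5 did. Likeness is the Pearson correlation of batch-centred log2 CPM over the 35 libraries among 9618 genes, which share the genotypes and the library depth with Lgals1. Hbb-bt and Hbb-b2, adult beta-globin genes with identical counts that cannot be told apart, had r = 0.65. They averaged 234 ± 110 CPM in JAK2-VF Ezh2-null libraries, from 66.4 to 359 CPM, against at most 92.2 CPM in any other library. Ms4a6b, a membrane protein gene of immune cells, had r = 0.59 and 58.5 ± 12.3 CPM in JAK2-VF Ezh2-null libraries, against 25.7 ± 4.9 CPM in JAK2-VF libraries. Hdac9, a histone deacetylase gene, and Ebi3, a cytokine subunit gene, had r = 0.59 and 0.58. Over the 20 libraries with JAK2-VF and the 15 without, r was 0.75 and 0.28 for Hbb-bt, 0.81 and -0.27 for Ms4a6b, 0.65 and 0.40 for Hdac9, and 0.85 and -0.07 for Ebi3. Without the 2 libraries farthest from the median, r over all libraries was 0.54 for Hbb-bt, 0.41 for Ms4a6b, 0.47 for Hdac9 and 0.40 for Ebi3. The summed level of 10 erythroid genes, Hbb-bt among them, ran from 4910 to 6250 CPM in JAK2-VF Ezh2-null libraries and from 3710 to 6340 CPM in JAK2-VF libraries, and its r with Lgals1 was 0.24. The summed level of 30 interferon-stimulated genes ran from 4000 to 6710 CPM in JAK2-VF Ezh2-null libraries and from 2890 to 3470 CPM in JAK2-VF libraries, with r = 0.39 over all libraries, 0.54 over those with JAK2-VF and -0.20 over those without. The part of either in the Lgals1 values was not tested.

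Lgals9, which encodes galectin-9, a ligand of the immune receptor Tim-3 (Havcr2), rose with JAK2-VF whatever the Ezh2 genotype. In JAK2-VF Ezh2-null libraries it ran from 468 to 725 CPM with a median of 524 CPM, and Ezh2-null libraries had 365, 363, 362 and 323 CPM. JAK2-VF libraries ran from 512 to 678 CPM with a median of 575 CPM, and control libraries had 374, 430, 386 and 371 CPM. In both comparisons every library with JAK2-VF lay above every library without it. JAK2-VF Ezh2-het libraries ran from 381 to 580 CPM with a median of 456 CPM, and Ezh2-het libraries from 276 to 433 CPM with a median of 332 CPM. Here the groups overlapped, with 4 of the 8 JAK2-VF Ezh2-het libraries above every Ezh2-het library.

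The log2 change of Lgals9 with JAK2-VF was 0.69 ± 0.13 in Ezh2-null cells (fold 1.62, edgeR adjusted p = 0.00109), 0.42 ± 0.10 in Ezh2-heterozygous cells (fold 1.33, edgeR adjusted p = 0.00572) and 0.54 ± 0.13 in Ezh2-intact cells (fold 1.46, edgeR adjusted p = 0.014). These comparisons have no library in common, but 1 model of all 35 libraries gave them a shared estimate of the spread and shared batch and sex terms. With only the compared groups in the fit the changes were 0.67, 0.40 and 0.48 in the same order (edgeR adjusted p = 0.0515, 0.0184 and 0.0988). Lgals9 was the only member called, 1 of 3 tested in Ezh2-null and Ezh2-intact cells and 1 of 4 in Ezh2-heterozygous cells, where 4.84%, 4.22% and 9.05% of all genes were called. It was also called in JAK2-VF Ezh2-null against control cells (log2 0.51 ± 0.13, edgeR adjusted p = 0.0111, 6 of 6 libraries above every control), where 5.48% of all genes were called. The change in Ezh2-intact cells lost its call without JAK2-VF batch 1 replicate 1 (log2 0.50, edgeR adjusted p = 0.0593), and the change in Ezh2-heterozygous cells was 0.23 in females alone (edgeR adjusted p = 0.452) and 0.36 without the 2 Ezh2-het libraries whose values went against a label (edgeR adjusted p = 0.0419). Within batch 1 and batch 2 the changes were 0.54 and 0.68 in Ezh2-null cells, 0.41 and 0.39 in Ezh2-heterozygous cells and 0.48 and 0.55 in Ezh2-intact cells, and only 0.68 passed alone (edgeR adjusted p = 0.0125).

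Loss of Ezh2 did not move Lgals9 past the threshold. JAK2-VF Ezh2-null cells averaged 557 ± 93.8 CPM against 581 ± 66 CPM in JAK2-VF cells, a log2 change of -0.03 ± 0.12 with a 95% interval from -0.27 to 0.20 (edgeR adjusted p = 0.997), where 0.475% of all genes were called. Ezh2-null cells averaged 353 ± 20.1 CPM against 390 ± 27.6 CPM in control cells, and all 4 Ezh2-null libraries lay below every control, but the change did not pass (log2 -0.18 ± 0.15, edgeR adjusted p = 0.986; 0.00669% of all genes called). JAK2-VF Ezh2-het cells averaged 474 ± 74.6 CPM against 581 ± 66 CPM in JAK2-VF cells, lower by a log2 difference that did not pass (-0.29 ± 0.10, edgeR adjusted p = 1), and edgeR called no gene there (0%), with 578 genes at an unadjusted p under 0.05, 44 called by DESeq2 and 0 by limma-voom. Ezh2-het cells averaged 355 ± 57.5 CPM against 390 ± 27.6 CPM in control cells (log2 -0.16 ± 0.13, edgeR adjusted p = 1), where edgeR also called no gene (0%), with 772 at an unadjusted p under 0.05, 64 called by DESeq2 and 0 by limma-voom. The JAK2-VF change of Lgals9 in Ezh2-null cells minus that in Ezh2-intact cells was 0.15 ± 0.20, with a 95% interval from -0.25 to 0.55 (edgeR adjusted p = 1; 0.00669% of all genes called). For Ezh2-heterozygous minus Ezh2-intact cells it was -0.13 ± 0.17 (edgeR adjusted p = 1), in a contrast where edgeR called no gene (0%), with 622 at an unadjusted p under 0.05, 56 called by DESeq2 and 0 by limma-voom.

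**Figure D3:**
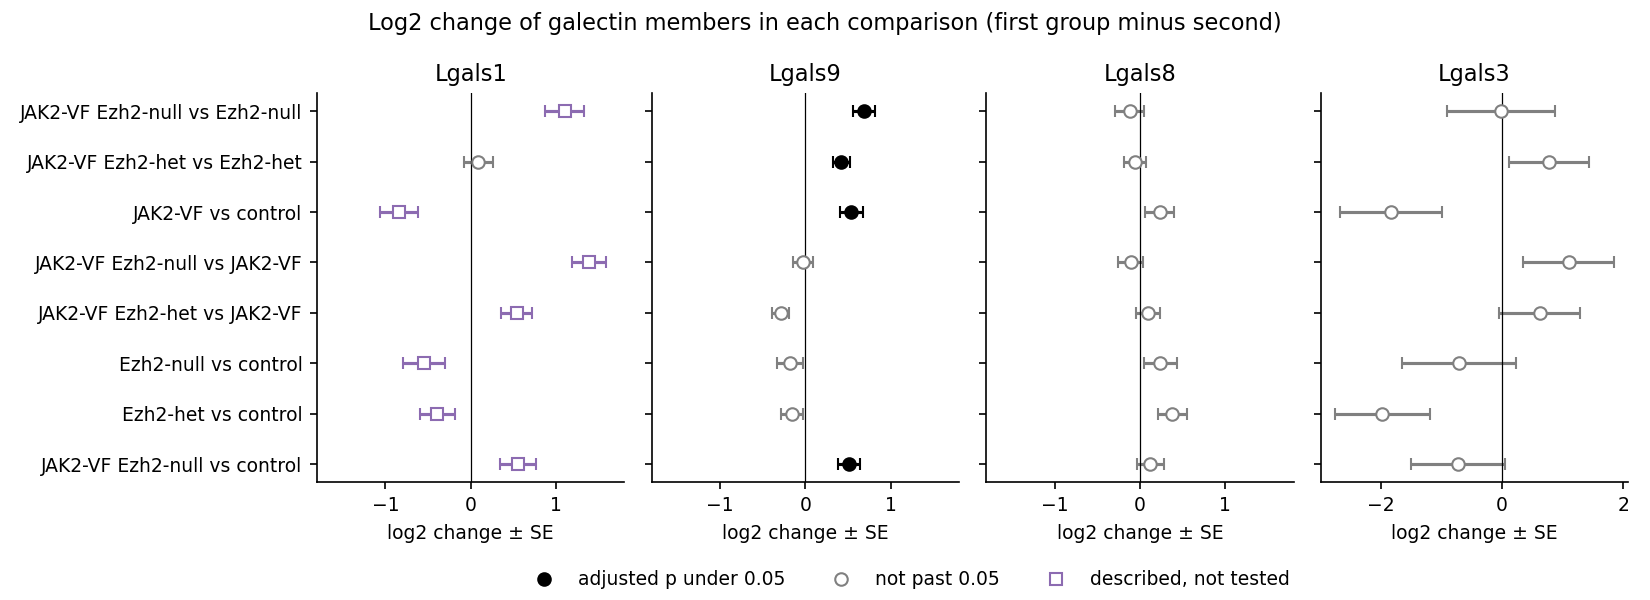
Log2 change with SE of each member in 8 comparisons, first group minus second; filled points passed an adjusted p of 0.05, and squares are Lgals1 values that are described and not tested. Lgals9 lies above 0 in the 4 comparisons of libraries with JAK2-VF against libraries without it, and Lgals3 has an SE of 0.66 to 0.94.

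Over all libraries Lgals9 tracked genes of dividing cells. The genes most like it were Ran, a nuclear transport GTPase gene (r = 0.91), Cdca7, a chromatin factor gene that peaks in dividing cells (r = 0.90), and Kif20a, a mitotic kinesin gene (r = 0.89). Ran averaged 221 ± 16.2 CPM in JAK2-VF Ezh2-null libraries, 243 ± 39.7 CPM in JAK2-VF libraries and 159 ± 8.46 CPM in control libraries. Within the 20 libraries with JAK2-VF and the 15 without, r was 0.71 and 0.86 for Ran, 0.82 and 0.58 for Cdca7, and 0.77 and 0.41 for Kif20a. Against the summed level of 20 proliferation genes r was 0.88 over all libraries, 0.83 within those with JAK2-VF and 0.32 within those without. Against the summed level of 12 stem-cell marker genes it was -0.87, -0.53 and -0.80 over the same libraries.

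Those lists moved in the same comparisons. Of the 20 proliferation genes 17 rose with JAK2-VF in Ezh2-null cells (4.84% of all genes called), 19 in Ezh2-heterozygous cells (9.05%) and 18 in Ezh2-intact cells (4.22%), and of the 12 stem-cell markers 6, 8 and 5 fell. In batch 2 alone 9 proliferation genes rose and 5 markers fell in Ezh2-null cells, with 373 of all genes called. Batch 1 and females alone held 1 Ezh2-null library each, so no counts are given for them. In batch 1, batch 2 and females alone, 12, 15 and 15 proliferation genes rose in Ezh2-heterozygous cells and 8, 3 and 17 in Ezh2-intact cells. In the same subsets 2, 5 and 2 markers fell in Ezh2-heterozygous cells and 2, 1 and 4 in Ezh2-intact cells. Over all genes 176, 636 and 349 were called there in Ezh2-heterozygous cells and 83, 38 and 411 in Ezh2-intact cells. Without the 2 libraries whose values went against a label these counts were 18, 19 and 19 proliferation genes and 6, 5 and 5 markers. The part of this shift in the Lgals9 values was not tested.

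**Figure D4:**
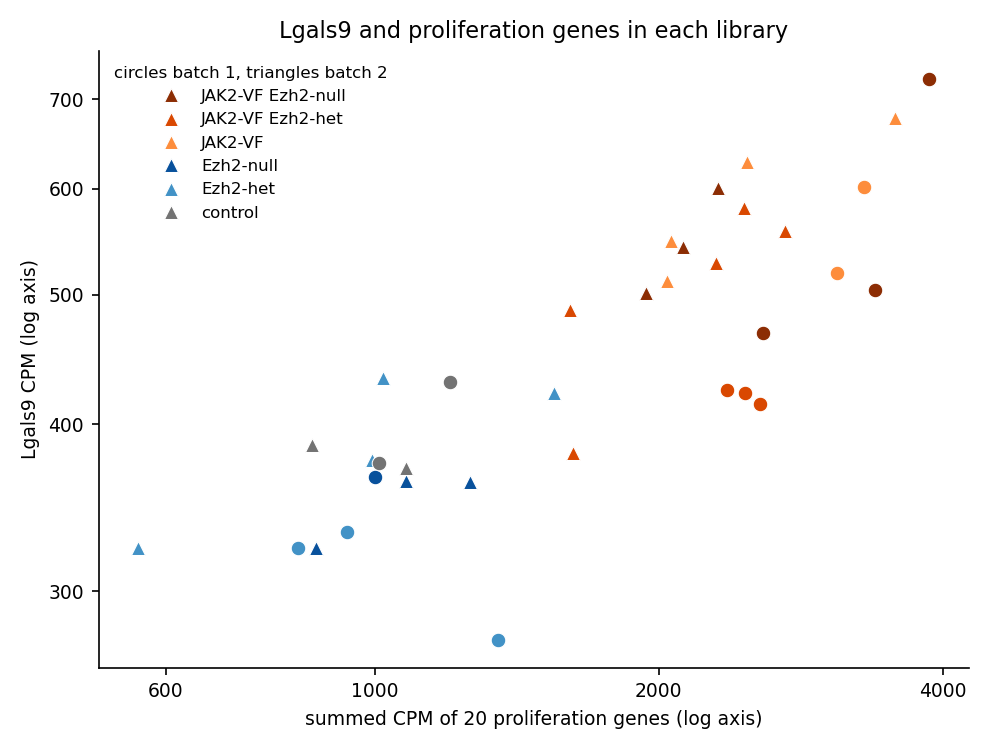
Lgals9 CPM against the summed CPM of 20 proliferation genes, both on log axes, 1 point per library, with circles for batch 1 and triangles for batch 2. Libraries with JAK2-VF (brown to orange) lie to the upper right of libraries without it, and r over the 35 libraries is 0.88 after removal of each batch's mean.

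The region around the start of Lgals9 is shown because the gene is known to respond to interferon in other cells and interferon-stimulated genes were called in several of these comparisons. It spans 250 bases before to 50 after the annotated start, chr11:78984875-78985174 on the minus strand of GRCm38.p6 (RefSeq), printed 5′ to 3′ with matches to the interferon response motif (GAAA, any 2 bases, GAAA), on either strand, in capitals.
Lgals9: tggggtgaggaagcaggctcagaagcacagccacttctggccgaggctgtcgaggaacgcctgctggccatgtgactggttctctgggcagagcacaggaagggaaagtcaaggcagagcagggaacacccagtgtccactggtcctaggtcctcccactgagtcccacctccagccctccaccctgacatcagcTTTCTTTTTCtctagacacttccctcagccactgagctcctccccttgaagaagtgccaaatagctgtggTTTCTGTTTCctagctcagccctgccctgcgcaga
The 2 matches, TTTCTTTTTC and TTTCTGTTTC, lie at bases -55 to -46 and 16 to 25 from the start. At least 1 match was present in 3.44% of 32851 promoter windows of the same length and at least 2 in 0.225%. The STAT motif TTCNNNGAA, found in 8.3% of windows on either strand, had no match in those of Lgals3, Lgals8 or Lgals9. The window of Lgals9 held 4 CpG pairs, those of Lgals3 and Lgals8 18 and 6. Of 30 interferon-stimulated genes 11 rose and 0 fell in JAK2-VF Ezh2-null against JAK2-VF cells (0.475% of all genes called), where Lgals9 differed by -0.03 ± 0.12 on the log2 scale, and 8 rose and 0 fell in JAK2-VF Ezh2-null against control cells (5.48% of all genes), where Lgals9 rose by 0.51. With JAK2-VF 2 rose and 0 fell in Ezh2-null cells (4.84% of all genes called) and 1 rose and 5 fell in Ezh2-heterozygous cells (9.05%). In Ezh2-intact cells (4.22%) none passed by edgeR, with 10 at an unadjusted p under 0.05, 2 called by DESeq2 and 0 by limma-voom. Lgals9 rose in all 3 of these comparisons. Its r with the summed level of the 30 interferon-stimulated genes was 0.10 over all libraries, 0.24 over those with JAK2-VF and -0.06 over those without. Over all libraries but the 2 whose sum lay farthest from the median it was -0.25. The part of interferon in the Lgals9 values was not tested. The count of 11 in JAK2-VF Ezh2-null against JAK2-VF cells was 0 in batch 1 alone, 5 in batch 2 alone and 2 in females alone. Over all genes 1, 22 and 8 were called in those subsets.

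Lgals8, which encodes galectin-8, a sensor of damaged vesicles, passed in no comparison. It ran from 103 to 143 CPM in JAK2-VF Ezh2-null libraries (median 114) and from 87.7 to 160 CPM in JAK2-VF libraries (median 129). Ezh2-null libraries had 103, 123, 150 and 145 CPM, and control libraries 97.5, 76.9, 144 and 114 CPM. All of these groups overlapped. Its log2 change with JAK2-VF was -0.12 ± 0.17 in Ezh2-null cells, with a 95% interval from -0.47 to 0.22, -0.06 ± 0.13 in Ezh2-heterozygous cells, from -0.32 to 0.20, and 0.23 ± 0.17 in Ezh2-intact cells, from -0.12 to 0.58 (edgeR adjusted p = 0.774, 0.844 and 0.534). The last value was 0.51 in batch 1 and 0.03 in batch 2, and ran from 0.08 (without JAK2-VF batch 1 replicate 2) to 0.40 (without control batch 2 replicate 2) with 1 library left out. The genes most like it were Serinc1, a membrane protein gene (r = 0.74), Ccnt1, of the elongation factor P-TEFb (r = 0.67), and Tax1bp1, an autophagy receptor gene (r = 0.66).

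Lgals3, which encodes galectin-3, abundant in macrophages, was low and uneven in these stem cells. JAK2-VF Ezh2-null libraries ran from 0.392 to 16.1 CPM (median 7.19), JAK2-VF Ezh2-het libraries from 0.754 to 26.7 CPM (median 5.47) and JAK2-VF libraries from 1.77 to 14.4 CPM (median 5.40). Ezh2-null libraries had 5, 8.45, 41.5 and 6.98 CPM, Ezh2-het libraries ran from 0.474 to 12.1 CPM (median 4.56), and control libraries had 3.29, 28.7, 11.9 and 3.28 CPM. The ranges of all of these groups overlapped, and single libraries of 41.5, 28.7 and 26.7 CPM stood well above their groups' medians.

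The largest of its JAK2-VF changes was -1.82 ± 0.84 on the log2 scale in Ezh2-intact cells, which missed the threshold over all genes (edgeR adjusted p = 0.246), and became -0.68 without control batch 1 replicate 2. In Ezh2-heterozygous cells the change was 0.77 ± 0.66 and in Ezh2-null cells -0.01 ± 0.89 (edgeR adjusted p = 0.545 and 0.999). The genes most like Lgals3 were Cd177, a neutrophil surface protein gene (r = 0.67), Vps53, a vesicle-tethering gene (r = 0.67), and Bysl, a ribosome biogenesis gene (r = 0.66). Against the summed level of 15 neutrophil and monocyte genes r was 0.53, and 0.56 and 0.57 within the libraries with and without JAK2-VF. Without the 2 libraries farthest from the median r was 0.40 for Cd177, 0.46 for Vps53, 0.58 for Bysl and 0.40 for the summed neutrophil and monocyte genes. That sum ran from 983 to 7690 CPM in JAK2-VF Ezh2-null libraries, 2080 to 18900 CPM in JAK2-VF libraries, 1670 to 3960 CPM in Ezh2-null libraries and 2810 to 8120 CPM in control libraries, with none of the 15 genes at 0 in any group. The summed level of 10 macrophage genes was 8.16 to 69.8 CPM over all groups. The part of such cells in the Lgals3 values was not tested. Correlations between the 4 members ran from -0.21 to 0.19, so they did not move as a group.

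None of the 5 other galectin genes that could be tested passed in any comparison by edgeR, where 0 to 9.05% of all genes were called. At an unadjusted p under 0.05 there was 1 in JAK2-VF Ezh2-null against Ezh2-null cells (Grifin) and 0 in the others. DESeq2 called 1 in that comparison and 1 in Ezh2-null against control cells, and limma-voom 0. Lgals4 had 43.7 ± 11.9 CPM in JAK2-VF Ezh2-null libraries against 77 ± 33.8 CPM in Ezh2-null libraries (log2 -0.45 ± 0.24, edgeR adjusted p = 0.322).

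Of 19 galectin-binding partners tested, 1 fell with JAK2-VF in Ezh2-heterozygous cells (9.05% of all genes called). By edgeR 0 passed in Ezh2-null or Ezh2-intact cells (4.84% and 4.22% of all genes called). There 3 and 4 had an unadjusted p under 0.05, and DESeq2 and limma-voom called 1 each. The integrin subunit gene Itga5 was the one that fell, to 76.5 ± 5.81 CPM in JAK2-VF Ezh2-het libraries against 102 ± 31.6 CPM in Ezh2-het libraries (log2 -0.38 ± 0.11, edgeR adjusted p = 0.0229). Leaving out any 1 of 3 libraries ended this call (Ezh2-het batch 1 replicate 1 or 3, or JAK2-VF Ezh2-het batch 1 replicate 2; highest edgeR adjusted p = 0.0892), as did leaving out both of those Ezh2-het libraries (log2 -0.20, edgeR adjusted p = 0.267). The integrin subunit gene Itgb1 rose to 211 ± 76.9 CPM in JAK2-VF Ezh2-null libraries, against 148 ± 41 CPM in control libraries (log2 0.50 ± 0.13, edgeR adjusted p = 0.0211; 5.48% of all genes called), a call that any 1 of 5 left-out libraries ended (highest edgeR adjusted p = 0.0777). The galectin-3-binding glycoprotein gene Lgals3bp had 392 ± 98.4 CPM in JAK2-VF Ezh2-null libraries, 362 ± 117 CPM in JAK2-VF libraries and 351 ± 33.3 CPM in control libraries. Havcr2, the receptor of galectin-9, had 8.82 ± 5.63 CPM in JAK2-VF libraries against 5.31 ± 2.32 CPM in control libraries (edgeR adjusted p = 0.582).

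Some genes of enzymes that build or cap the sugar chains to which galectins bind passed with JAK2-VF, and most did not. Of 25 tested, 4 rose and 2 fell in Ezh2-null cells (4.84% of all genes called), 2 rose and 3 fell in Ezh2-heterozygous cells (9.05%) and 2 rose and 1 fell in Ezh2-intact cells (4.22%). Without the 2 libraries whose values went against a label the counts were 4 and 2, 3 and 2, and 2 and 1. In Ezh2-intact cells none passed in batch 1, batch 2 or females alone by edgeR, where 83, 38 and 411 of all genes were called. In Ezh2-null cells 3 rose and 2 fell in batch 2 alone, where 373 of all genes were called. Batch 1 and females alone held 1 Ezh2-null library each, so no counts are given for them. St3gal1, which caps the core of O-linked chains with sialic acid, fell in all 3 comparisons. It had 79.5 ± 13.9 CPM in JAK2-VF Ezh2-null against 159 ± 18.6 CPM in Ezh2-null libraries, 87.5 ± 11.1 CPM in JAK2-VF Ezh2-het against 160 ± 28.3 CPM in Ezh2-het libraries, and 88.2 ± 16.1 CPM in JAK2-VF against 154 ± 20.7 CPM in control libraries. Every library with JAK2-VF lay below every library without it in each of these comparisons (log2 -1.02 ± 0.15, -0.85 ± 0.12 and -0.81 ± 0.15; edgeR adjusted p = 4.2e-05, 5.63e-06 and 0.00145). Fut8, which adds the core fucose to N-linked chains, rose in the same 3 comparisons, also with no overlap. It had 452 ± 105 CPM in JAK2-VF Ezh2-null against 226 ± 33.7 CPM in Ezh2-null libraries, 441 ± 51.5 CPM in JAK2-VF Ezh2-het against 241 ± 64 CPM in Ezh2-het libraries, and 433 ± 44.3 CPM in JAK2-VF against 278 ± 26 CPM in control libraries (log2 0.95 ± 0.17, 0.86 ± 0.13 and 0.70 ± 0.18; edgeR adjusted p = 0.000711, 3.76e-05 and 0.0169). Over the 11 alternatives its lowest log2 change was 0.35 in Ezh2-null cells and 0.54 in Ezh2-heterozygous cells. In Ezh2-heterozygous cells its call was lost in batch 1 alone (edgeR adjusted p = 0.298). Its call in Ezh2-intact cells was lost without control batch 1 replicate 2 (edgeR adjusted p = 0.0678) and in batch 1, batch 2 and females alone (log2 0.76, 0.64 and 0.69, with edgeR adjusted p = 0.227, 0.316 and 0.0901). The St3gal1 call in Ezh2-intact cells was lost in the same subsets (log2 -0.66, -0.99 and -0.64; edgeR adjusted p = 0.231, 0.0684 and 0.053) and with only the compared groups in the fit (log2 -0.66, edgeR adjusted p = 0.0894).

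Other enzyme genes passed in some comparisons. Gcnt2, which branches poly-lactosamine chains, fell to 301 ± 28 CPM in JAK2-VF Ezh2-null libraries, against 529 ± 69.6 CPM in Ezh2-null libraries (log2 -0.80 ± 0.15, edgeR adjusted p = 0.000939), and by 0.42 ± 0.12 in Ezh2-heterozygous cells (edgeR adjusted p = 0.019). The sialyltransferase gene St3gal2 rose to 71.2 ± 10.3 CPM in JAK2-VF Ezh2-null libraries, against 26.4 ± 9.69 CPM in Ezh2-null libraries (log2 1.41 ± 0.31, edgeR adjusted p = 0.00479), and its relative St3gal6 to 28.6 ± 6.51 against 13.1 ± 6.21 CPM (log2 1.11 ± 0.28, edgeR adjusted p = 0.0161). Gcnt1, which branches O-linked chains, rose to 108 ± 22.4 CPM in JAK2-VF libraries, against 75.2 ± 10.3 CPM in control libraries (log2 0.60 ± 0.16, edgeR adjusted p = 0.0308). B4galt6, a galactosyltransferase gene, fell to 21.8 ± 4.15 CPM in JAK2-VF Ezh2-het libraries, against 42.9 ± 17.8 CPM in Ezh2-het libraries (log2 -0.97 ± 0.20, edgeR adjusted p = 0.00178). St6gal1, whose sialic acid cap blocks binding of galectin-1, was called in Ezh2-null and Ezh2-heterozygous cells but at 3.53 ± 3.38 and 1.85 ± 1.84 CPM with JAK2-VF, against 0.0806 ± 0.161 and 0.0751 ± 0.136 CPM without. Its calls were lost without any 1 of 11 and any 1 of 9 libraries (highest edgeR adjusted p = 0.145 and 0.0787). The calls of St3gal6, of Gcnt2 in Ezh2-heterozygous cells and of Gcnt1 were lost without any 1 of 2, 3 and 3 libraries (highest edgeR adjusted p = 0.142, 0.0603 and 0.151). Without the 2 Ezh2-het libraries whose values went against a label, Gcnt2 in Ezh2-heterozygous cells lost its call (log2 -0.36, edgeR adjusted p = 0.0663), while St3gal1 and Fut8 were at -0.86 and 1.04 there. The JAK2-VF changes of St3gal2, St3gal6 and Gcnt1 in Ezh2-null minus Ezh2-intact cells were 1.14 ± 0.45, 0.99 ± 0.42 and -0.70 ± 0.24, and none of these differences passed (edgeR adjusted p = 0.747, 0.819 and 0.625). Between JAK2-VF Ezh2-null and JAK2-VF cells 0 of the 25 passed by edgeR (0.475% of all genes called), with 4 at an unadjusted p under 0.05 and 1 called by DESeq2 and by limma-voom.

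**Figure D5:**
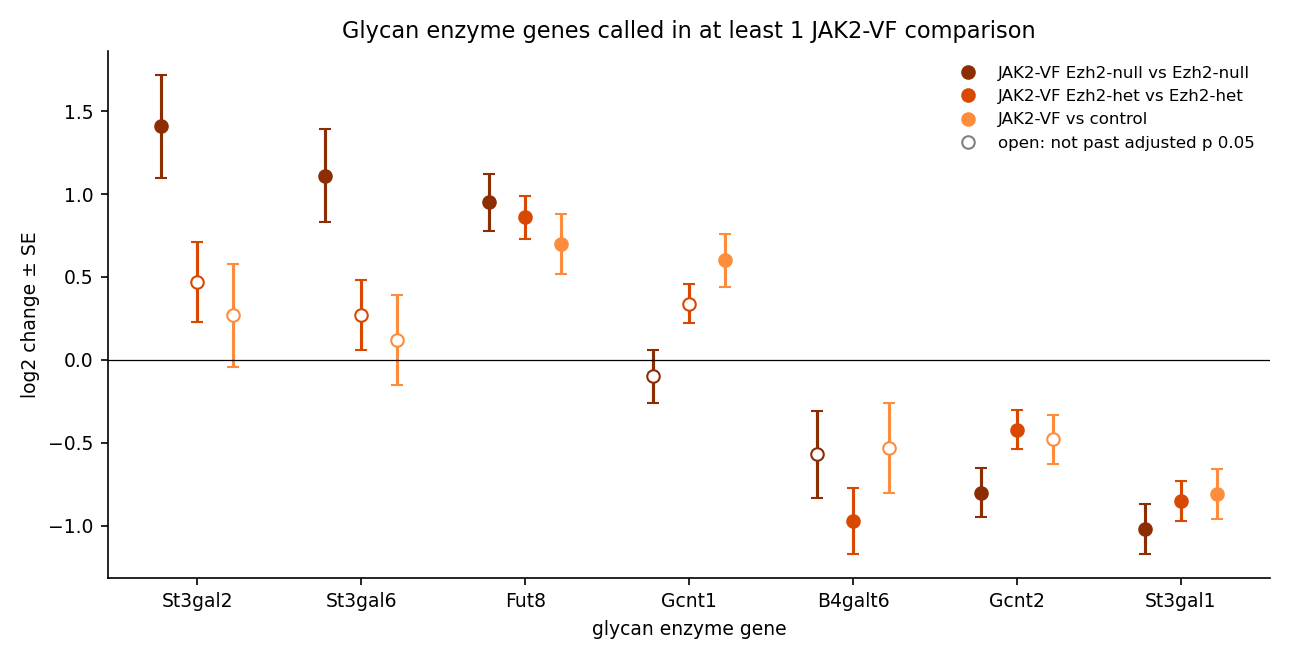
Log2 change with SE of the glycan enzyme genes called in at least 1 comparison of libraries with JAK2-VF against libraries without it, leaving out St6gal1, which was under 10 CPM; filled points passed an adjusted p of 0.05. St3gal1 lies below 0 and Fut8 above 0, filled, in all 3 comparisons.

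Of 11 partners in the handling of damaged membranes that were tested, 1 rose in JAK2-VF Ezh2-null against JAK2-VF cells (0.475% of all genes called). With JAK2-VF in Ezh2-null cells 1 fell (4.84%), and 1 rose in JAK2-VF Ezh2-null against control cells (5.48%). Irgm1, an interferon-inducible GTPase gene, rose to 334 ± 114 CPM in JAK2-VF Ezh2-null libraries, against 192 ± 24.6 CPM in JAK2-VF libraries (log2 0.77 ± 0.18, edgeR adjusted p = 0.0294). Its 6 double mutant libraries all exceeded the highest JAK2-VF library, but limma-voom did not call it (adjusted p = 0.0892). The autophagy kinase gene Ulk1 fell to 44.6 ± 17.2 CPM in JAK2-VF Ezh2-null libraries, against 64.9 ± 18.2 CPM in Ezh2-null libraries (log2 -0.84 ± 0.23, edgeR adjusted p = 0.0283). These calls were lost without any 1 of 6 and any 1 of 5 libraries (highest edgeR adjusted p = 0.168 and 0.128), and both were lost in batch 1, batch 2 and females alone and with only the compared groups in the fit (lowest edgeR adjusted p = 0.247 and 0.0605). Irgm1 was also called in JAK2-VF Ezh2-null against control cells (log2 0.75). That call was lost without control batch 1 replicate 1 (edgeR adjusted p = 0.0751) and in batch 1 and batch 2 alone.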

How the data were processed

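Each library came from 1000 sorted LT-HSCs, with RNA isolated by Pico-Pure and libraries made with a SMARTer low-input kit, per the labels' protocols. The authors deposited raw counts per Entrez gene. Reads were aligned with STAR to mm9, per the submitters' processing notes, and no source used here gives the counting tool, the annotation or whether strand was used. The files held 19138 genes, of which 63 had no symbol, and 1 entry for part of Ezh2, at most 0.000935% of a library, which stayed out of library sizes and tests.

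Counts of all 35 libraries were fitted in 1 model with terms for group, batch and sex by edgeR 4.0.16 (TMM, filterByExpr, robust quasi-likelihood test, 27 residual degrees of freedom) in R 4.3.3, with Benjamini-Hochberg adjustment over 14945 genes tested and 4193 genes removed as low. A gene was called at an adjusted p under 0.05. CPM were scaled by TMM, whose factors ran from 0.937 to 1.062. Log2 changes and their SEs come from this fit, and SDs from CPM. DESeq2 1.42.0, limma 3.58.1 (voom with quality weights), other scalings, filters, covariates and subsets, and each library left out in turn were the alternatives. Steps were tested on simulated data. Figures used Python 3.11.15 and matplotlib 3.10.9.

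Members and lists were chosen with earlier results of these data known. The text names the 4 members, the other galectin genes counted, called genes of each list (at most 4 per comparison by adjusted p, with exceptions named for their role) and the genes most like a member by Pearson correlation of batch-centred log2 CPM (prior count 2, mean log2 CPM of at least 3; 5 for Lgals1 and 3 for each other member), with no p. Of 192 list entries 188 were counted. B and T cell, stromal and endothelial and megakaryocyte markers were summed too, and among them edgeR called only Ms4a1, which fell against control cells with JAK2-VF, both with Ezh2 intact and with Ezh2 lost. No label ties libraries to animals, so p-values measure the spread between libraries. Promoter windows are from RefSeq (GRCm38.p6), matched by symbol for 3 of the 4 members.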

Additional observations from a re-analysis of the deposited data

Results flagged for a closer look

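In 24 sets of 1 member in 1 group, the highest or lowest library was compared with its nearest neighbour, and chance marks about 1 set in 20. There were 2 marked, both among the 4 Ezh2-null libraries. Lgals3 in Ezh2-null batch 2 replicate 2 was 41.5 CPM, far above the other libraries of its group at 5, 6.98 and 8.45 CPM (gap over range 0.905, limit 0.829). Lgals9 in Ezh2-null batch 2 replicate 3 was 323 CPM, below the others at 362, 363 and 365 CPM (gap over range 0.929, limit 0.829).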

How the results depend on the processing

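The rise of Lgals9 with JAK2-VF kept its direction under all 11 alternatives and all 35 left-out libraries. It missed the threshold with only the compared groups in the fit (0.67 in Ezh2-null, 0.48 in Ezh2-intact, 0.48 in double mutant against control cells), in batch 1 alone (0.54, 0.48, 0.49 and, in Ezh2-heterozygous cells, 0.41), in batch 2 alone (0.55 in Ezh2-intact, 0.50 in double mutant, 0.39 in Ezh2-heterozygous cells) and in females alone (0.60 in Ezh2-null, 0.53 in Ezh2-intact, 0.23 in Ezh2-heterozygous cells). These subsets hold fewer libraries. With 1 library left out it ran from 0.60 to 0.74 in Ezh2-null, 0.37 to 0.47 in Ezh2-heterozygous, 0.50 to 0.62 in Ezh2-intact and 0.40 to 0.58 in double mutant against control cells.

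Signs turned only for values near 0 or uneven genes, and the cause was not tested. Lgals1 in Ezh2-heterozygous cells was -0.01 with no term for sex, and its difference of JAK2-VF changes was 1.37 there. Lgals9 in JAK2-VF Ezh2-null against JAK2-VF cells was 0.02 with only the compared groups and 0.01 in batch 1, and -0.13 to 0.01 with 1 library left out. The JAK2-VF change of Lgals8 was 0.07 in batch 1 and 0.08 in females in Ezh2-heterozygous cells (-0.12 to 0.03 with 1 left out), and 0.48 and 0.01 in Ezh2-null cells. Lgals8 in JAK2-VF Ezh2-null against JAK2-VF cells ran from -0.23 to 0.04 with 1 left out. The JAK2-VF change of Lgals3 was -0.81 in batch 1 in Ezh2-heterozygous cells, and in Ezh2-null cells 1.51 in batch 1, 0.08 without the 2 libraries whose values went against a label, and -0.44 to 0.71 with 1 left out.

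Counts of genes called depended on the setting. For JAK2-VF in Ezh2-null cells (723) they were 1117 by DESeq2, 252 with only the compared groups, 3 in batch 1, 373 in batch 2, 56 in females and 357 to 852 with 1 left out, the lowest without Ezh2-null batch 2 replicate 1. In Ezh2-heterozygous cells (1353) they were 835 with only the compared groups, 176 in batch 1, 636 in batch 2 and 349 in females. In Ezh2-intact cells (631) they were 1003 by DESeq2, 83 in batch 1, 38 in batch 2, 411 in females and 282 to 695 with 1 left out, the lowest without control batch 1 replicate 1. For JAK2-VF Ezh2-null against JAK2-VF cells (71) they were 193 by DESeq2, 22 with only the compared groups, 1 in batch 1, 22 in batch 2, 8 in females and 38 to 85 with 1 left out, the lowest without JAK2-VF batch 1 replicate 1. For the double mutant against control cells (819) they were 118 in batch 1, 111 in batch 2 and 400 to 891 with 1 left out, the lowest without control batch 1 replicate 1.

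Replicate numbers are shared between groups, but in 0 of 69 same-numbered pairs did libraries deviate together (r over 0.1; range -0.18 to 0.08). With the replicate block the JAK2-VF change of Lgals9 was 0.61 in Ezh2-null, 0.35 in Ezh2-heterozygous and 0.63 in Ezh2-intact cells, all called, its difference, Ezh2-null minus Ezh2-intact, was -0.02, and 421 genes were called in Ezh2-null cells. The block ended the calls of Fut8 in Ezh2-intact cells (0.56, adjusted p = 0.0555), of Ulk1 and St3gal6 in Ezh2-null cells (-0.78 and 0.97, adjusted p = 0.0665 and 0.0824) and of Irgm1 in JAK2-VF Ezh2-null against JAK2-VF cells (0.73, adjusted p = 0.0923). Depth limits Lgals3, at 7 to 1286 counts a library, more than Lgals1 at 293 to 2159 or Lgals9 at 4769 to 26005.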
